A study of Saccharomyces cerevisiae with 16 samples.

Results

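The small nuclear and nucleolar RNA genes are the 81 genes whose identifiers start with snR among the 7126 genes that the tables list for *Saccharomyces cerevisiae*. They were chosen by name alone. They comprise 5 spliceosomal snRNA genes, 47 C/D snoRNA genes and 29 H/ACA snoRNA genes. Their abundance was measured by RNA-seq in *lsm1*∆ cells and WT cells, both of the haploid laboratory strain BY4741 and grown in YPD, from total RNA depleted of rRNA. Each strain was sampled before (untreated, 0 h) and 1, 2 and 4 h after addition of 200 mM hydroxyurea (HU), which inhibits ribonucleotide reductase and stalls DNA replication. There were 2 replicates of each of the 8 conditions, or 16 libraries. The study describes the replicates as technical in its methods and as duplicates in its results, so p-values measure the spread between these libraries and may not include variation between cultures. *LSM1* was 0 to 0.761 FPKM in the 8 *lsm1*∆ libraries and 111 to 181 FPKM in the 8 WT libraries, which fits the labels.

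Most snoRNAs guide chemical modification of ribosomal RNA. C/D snoRNAs pair with the target and direct 2′-O-methylation by the Nop1 methyltransferase, and H/ACA snoRNAs direct conversion of uridine to pseudouridine by Cbf5. A few, such as U3 and U14 among the C/D RNAs and snR30 and snR10 among the H/ACA RNAs, act in cleavage of the ribosomal RNA precursor. The snRNAs are RNA components of the spliceosome. Lsm1 is a subunit of the cytoplasmic Lsm1-7 ring, which binds the 3′ ends of deadenylated mRNAs and promotes decapping. The Lsm2 to Lsm7 subunits are shared with the nuclear Lsm2-8 ring, which binds the 3′ end of the U6 snRNA.

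Boxes C, D and ACA were searched in the RefSeq sequence of each gene, on its own strand. Box H of the H/ACA family was not searched. The sequence is that of assembly R64, the build of the deposited loci, in which all 81 genes lie at an identical position. The letters TGATGA, the core of box C, lay in the first 30 bases of 37 of 47 C/D genes (78.7%), 1 of 29 H/ACA genes (3.45%) and 2% of 6457 annotated genes. The letters CTGA, box D, lay in the last 30 bases of 45 C/D genes (95.7%), 2 H/ACA genes and 13.3% of annotated genes. The letters ACA lay exactly 3 bases before the annotated 3′ end of 14 H/ACA genes (48.3%), 3 C/D genes and 1.35% of annotated genes. Most C/D genes thus matched boxes C and D, whereas 14 of 29 H/ACA genes matched ACA at that position. The letters ACA lay anywhere in the last 30 bases of 69% of H/ACA genes, 44.7% of C/D genes and 36.5% of annotated genes. A missing match says only that the letters are not in that window.

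The H/ACA RNAs shown were called higher in *lsm1*∆ at all 4 times (snR11 and snR33) or lower in WT at all 3 times of HU (snR49), with the ACA box in capitals. Each guides pseudouridylation of ribosomal RNA. They lie at chrXIII:652275-652532 (snR11, plus strand), chrIII:142364-142546 (snR33, minus strand) and chrXIV:716120-716284 (snR49, plus strand).
snR11: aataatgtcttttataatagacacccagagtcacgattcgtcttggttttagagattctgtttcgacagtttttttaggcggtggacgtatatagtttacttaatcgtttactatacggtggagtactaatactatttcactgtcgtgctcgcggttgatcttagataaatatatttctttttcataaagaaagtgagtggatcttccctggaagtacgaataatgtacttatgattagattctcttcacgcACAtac
snR33: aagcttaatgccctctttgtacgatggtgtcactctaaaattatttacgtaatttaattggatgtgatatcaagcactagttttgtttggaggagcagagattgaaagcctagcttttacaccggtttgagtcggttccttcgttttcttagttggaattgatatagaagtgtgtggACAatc
snR49: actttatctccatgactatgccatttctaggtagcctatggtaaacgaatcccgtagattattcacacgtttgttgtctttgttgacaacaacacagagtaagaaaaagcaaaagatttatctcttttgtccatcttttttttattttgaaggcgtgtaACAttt

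The C/D RNAs shown had the largest called ratio of *lsm1*∆ to WT (snR48), the only calls of a changed ratio in HU (snR71 and snR13) or the only C/D call of a lower level in *lsm1*∆ (snR67), with boxes C and D in capitals. All 4 guide methylation of the large subunit rRNA. They lie at chrVII:609584-609696 (snR48), chrVIII:411228-411317 (snR71), chrIV:1402919-1403042 (snR13) and chrV:61352-61433 (snR67), each on the plus strand.
snR48: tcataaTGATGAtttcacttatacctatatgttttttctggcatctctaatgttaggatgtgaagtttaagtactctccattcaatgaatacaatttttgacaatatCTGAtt
snR71: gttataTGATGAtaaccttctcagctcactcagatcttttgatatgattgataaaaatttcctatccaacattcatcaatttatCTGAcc
snR13: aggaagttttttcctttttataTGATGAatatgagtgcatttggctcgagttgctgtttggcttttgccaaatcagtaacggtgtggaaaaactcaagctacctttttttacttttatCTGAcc
snR67: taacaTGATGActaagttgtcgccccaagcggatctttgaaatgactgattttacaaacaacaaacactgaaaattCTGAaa

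Among the snRNAs, U6 (snR6, chrXII:366235-366346, plus strand) is shown because its terminal T run, in capitals, is transcribed into the U run that Lsm2-8 binds. U5 occurs as a long and a short form with the same 5′ end, and the long form (snR7-L, chrVII:939459-939672, minus strand) is shown with the 35 bases that the short form (snR7-S) lacks in capitals.
snR6: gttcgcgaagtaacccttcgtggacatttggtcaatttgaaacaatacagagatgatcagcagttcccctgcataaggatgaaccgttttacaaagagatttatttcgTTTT
snR7-L: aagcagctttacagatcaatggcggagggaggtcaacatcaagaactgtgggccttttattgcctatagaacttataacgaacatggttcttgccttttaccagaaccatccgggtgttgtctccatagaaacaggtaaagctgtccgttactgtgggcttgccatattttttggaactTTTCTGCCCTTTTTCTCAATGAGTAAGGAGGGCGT

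The values are FPKM, fragments scaled to gene length and to the number of mapped fragments, estimated by Cufflinks. In the 16 libraries the 81 genes summed to 205151 to 375209 FPKM, 10.8% to 14.9% of all FPKM. C/D genes are short, 78 to 490 nt with a median of 98 nt, and H/ACA genes are longer, 161 to 1004 nt with a median of 204 nt. The Cufflinks interval of each value implies an effective number of fragments, which is not a read count but shows how little stands behind some values. The median over libraries was under 10 effective fragments in 10 genes (9 C/D genes and snR6), 10 to 99 in 34 (30 C/D, 3 H/ACA and 1 snRNA) and at least 100 in 37 (8 C/D, 26 H/ACA and 3 snRNA). In the 26 genes under 100 nt, all C/D, 1 effective fragment was worth 45.3 to 154 FPKM, and in the 22 genes of 200 nt and over it was worth 0.0964 to 10 FPKM. Levels of short genes therefore move in large steps. The worth of 1 effective fragment differed by more than length, with 116 FPKM in snR67 (82 nt) and 0.0964 FPKM in snR86 (1004 nt). Rankings by FPKM between genes of unlike length are thus not rankings of fragments per base. In genes that share reads with another gene the interval also holds the uncertainty of the split. For snR17a the number does not stand for depth. It has the highest FPKM per effective fragment among the genes of 200 nt and over, and 2165 to 2250 effective fragments across libraries. For snR10 and both U5 forms the number may not stand for depth.

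The highest mean levels over 16 libraries were 28060 FPKM in snR190, a C/D RNA of large subunit biogenesis, 22470 in U3 (snR17a), 18100 in snR37, 15920 in snR35 and 15880 in snR30. The lowest were 44.7 FPKM in snR6, 171 in snR87, 181 in snR58, 184 in snR68 and 223 in snR53. U6 rested on 0 to 4 effective fragments per library, against 41940 to 62410 for U1 (snR19). No statement on the level of U6 can be made from so few.

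The H/ACA RNAs snR37 and snR35 were higher in *lsm1*∆, with no overlap with WT at any time. snR37 was 22074 and 18451 FPKM in *lsm1*∆ and 16100 and 17832 in WT at 0 h, 23917 and 22100 FPKM in *lsm1*∆ and 15646 and 11933 in WT at 1 h, 20949 and 20073 FPKM in *lsm1*∆ and 16445 and 13128 in WT at 2 h, and 21953 and 21761 FPKM in *lsm1*∆ and 13300 and 13907 in WT at 4 h. snR35 was 23364 and 16870 FPKM in *lsm1*∆ and 14706 and 15256 in WT at 0 h, 22239 and 19935 FPKM in *lsm1*∆ and 14699 and 10276 in WT at 1 h, 18506 and 17430 FPKM in *lsm1*∆ and 13946 and 11108 in WT at 2 h, and 17390 and 15915 FPKM in *lsm1*∆ and 11773 and 11319 in WT at 4 h. At 1, 2 and 4 h both were called higher, and at 0 h neither was (log2 ratios 0.25 and 0.41). With centred libraries both were called at 1 h only. The lowest members scattered instead. snR87 was 115 and 428 FPKM in *lsm1*∆ and 162 and 177 in WT at 0 h, 265 and 393 FPKM in *lsm1*∆ and 145 and 79.5 in WT at 1 h, 176 and 97 FPKM in *lsm1*∆ and 58.4 and 193 in WT at 2 h, and 173 and 95.5 FPKM in *lsm1*∆ and 30.2 and 153 in WT at 4 h. snR58 was 205 and 163 FPKM in *lsm1*∆ and 287 and 105 in WT at 0 h, 141 and 0 FPKM in *lsm1*∆ and 154 and 235 in WT at 1 h, 207 and 229 FPKM in *lsm1*∆ and 207 and 97.7 in WT at 2 h, and 255 and 169 FPKM in *lsm1*∆ and 161 and 272 in WT at 4 h. snR68 was 241 and 207 FPKM in *lsm1*∆ and 269 and 153 in WT at 0 h, 116 and 213 FPKM in *lsm1*∆ and 231 and 95.1 in WT at 1 h, 140 and 181 FPKM in *lsm1*∆ and 163 and 165 in WT at 2 h, and 206 and 152 FPKM in *lsm1*∆ and 205 and 208 in WT at 4 h. None of these 3 was called in any comparison. snR53 was 198 and 420 FPKM in *lsm1*∆ and 124 and 67.7 in WT at 0 h, 243 and 64.3 FPKM in *lsm1*∆ and 199.1 and 182 in WT at 1 h, 134 and 370 FPKM in *lsm1*∆ and 134 and 252 in WT at 2 h, and 395 and 365 FPKM in *lsm1*∆ and 208 and 211 in WT at 4 h.

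Of the 81 genes, 8 lie inside an intron of a protein-coding gene on the same strand, and the library kit does not keep the strand. They are snR18 (in *EFB1*), snR39 (*RPL7A*), snR38 (*TEF4*), snR44 (*RPS22B*), snR54 (*IMD4*), snR24 (*ASC1*), snR191 (*NOG2*) and snR59 (*RPL7B*). A further 3 partly overlap an annotated open reading frame, snR10 by 216 bases (*YGL088W*), snR17a by 78 bases (*IRC13*) and snR60 by 49 bases (*YJL047C-A*), and snR73 contains the 81 bases of *YMR013W-A*. The short U5 form lies wholly inside the long one, and snR17a and snR17b are near-identical copies, so the split of fragments within each of these pairs is Cufflinks' estimate.

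The first question was whether sn(o)RNA abundance differs when *LSM1* is deleted. The median H/ACA snoRNA was more abundant in *lsm1*∆ at every time, with log2 ratios to WT of 0.39, 0.81, 0.50 and 0.61 at 0, 1, 2 and 4 h. C/D snoRNAs had medians of 0.26, 0.53, 0.25 and 0.28, and all tested genes 0.13, 0.04, 0.17 and 0.37. All log2 ratios are of FPKM + 1, and calls are at an adjusted p-value under 0.05 in limma with Benjamini-Hochberg adjustment over 6977 genes. With each library centred on its median gene, the H/ACA medians were 0.30, 0.81, 0.33 and 0.19 and the C/D medians were 0.17, 0.53, 0.08 and -0.14.

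**Figure D1:**
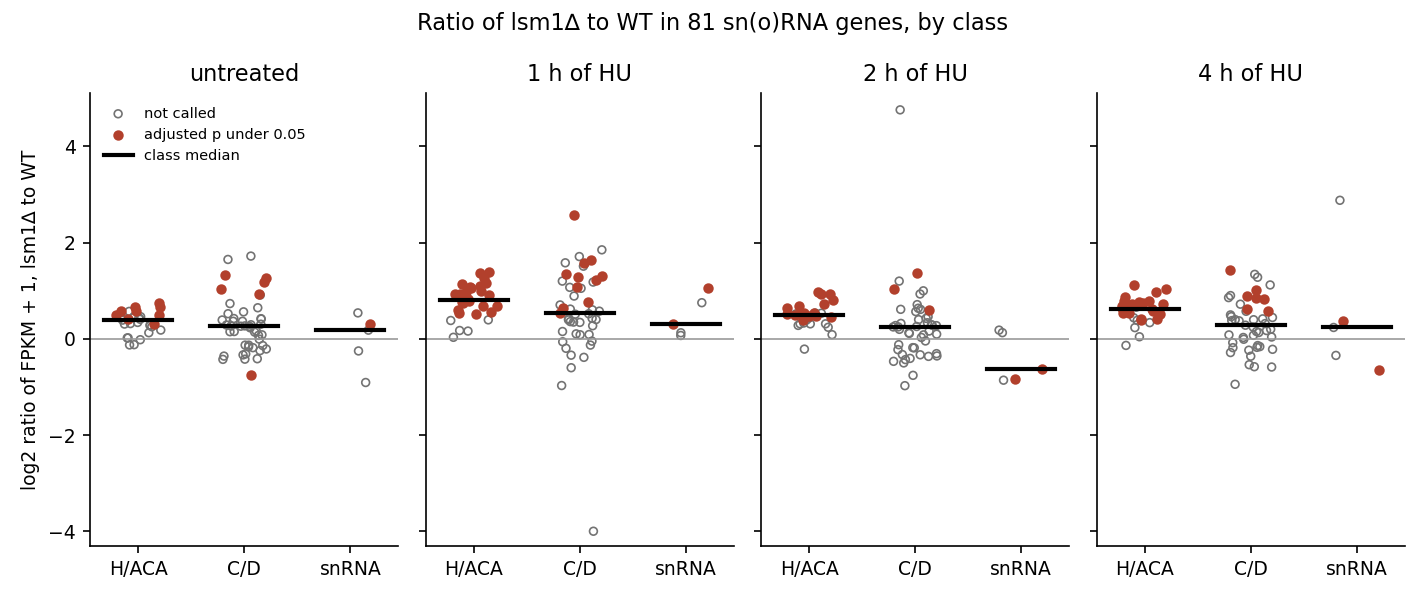
Log2 ratio of *lsm1*∆ to WT (FPKM + 1, vertical axis) of each of the 81 genes at 0, 1, 2 and 4 h of HU, by class. Filled points are called at an adjusted p under 0.05 and bars are class medians. H/ACA points sit above 0 in nearly all cases, with medians of 0.39 to 0.81, whereas C/D points scatter on both sides.

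In untreated cells, 15 of 81 members were called higher in *lsm1*∆ (18.5%) and 1 lower (1.23%), where 22.2% of all tested genes were called higher and 6.32% lower. By class, 9 of 29 H/ACA genes, 5 of 47 C/D genes and U1 were higher. At 1 h of HU 37 members were called higher (45.7%) and 0 lower, against 23.2% higher and 13.8% lower among all genes, and 1 member was lower at an unadjusted p under 0.05. The 37 were 24 of 29 H/ACA genes (82.8%), 11 of 47 C/D genes (23.4%) and 2 of 5 snRNA genes. At 2 h 19 were higher (23.5%) and 2 lower (2.47%), where the background was 32% and 7.75%. At 4 h 30 were higher (37%) and 1 lower (1.23%), where the background was 49.8% and 6.29%. The share of members called higher was therefore above that of all genes at 1 h only, and below it at the other 3 times. For H/ACA genes the share called higher was 31% at 0 h, 82.8% at 1 h, 55.2% at 2 h and 75.9% at 4 h. With each library centred on its median gene it was 27.6%, 86.2%, 31% and 17.2%, where 16.3%, 23.2%, 20.6% and 21.9% of all genes were called higher, so the H/ACA share at 4 h was then below that of all genes. For C/D genes it was 10.6%, 23.4%, 6.38% and 14.9% without centring.

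Centring the libraries ended most calls at 4 h, leaving 6 members higher (7.41%) and 7 lower (8.64%), where 21.9% of all genes were then higher and 23.5% lower. It left 11 higher and 3 lower at 2 h (13.6% and 3.7%, against 20.6% and 15.8%), 14 higher and 1 lower at 0 h (17.3% and 1.23%, against 16.3% and 9.42%) and 39 higher and 0 lower at 1 h (48.1% higher, against 23.2% higher and 13.9% lower). The count at 1 h was as large with centred libraries, whereas the median of the members at 4 h was then -0.01. With 1 library left out, 5 to 13 members were called higher at 0 h (5 without *lsm1*∆ replicate 1) and 8 to 27 at 2 h (8 without *lsm1*∆ replicate 1). Fitting the 4 libraries of a comparison alone called 10 members higher at 1 h and 5 at 0 h. The shares of all genes in these refits are not given, so the counts cannot be set against a background.

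The classes also differ in length and in fragment depth. Of the 7 C/D genes of 160 nt and over, which rest on 267.5 to 10780 effective fragments, 0 were called higher at 0, 1 and 2 h and 1 at 4 h, with medians of 0.15, 0.35, 0.25 and 0.24. Of the 12 H/ACA genes under 200 nt, 10 were called higher at 1 h (median 0.87), as were 14 of the 17 of 200 nt and over (median 0.77). Of members with at least 100 effective fragments 25 of 37 were called higher at 1 h, of those with 10 to 99 11 of 34, and of those under 10 1 of 10, and the 3 medians were 0.68, 0.59 and 1.13. The share called followed depth, while the medians of the 3 groups did not follow that order.

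**Figure D2:**
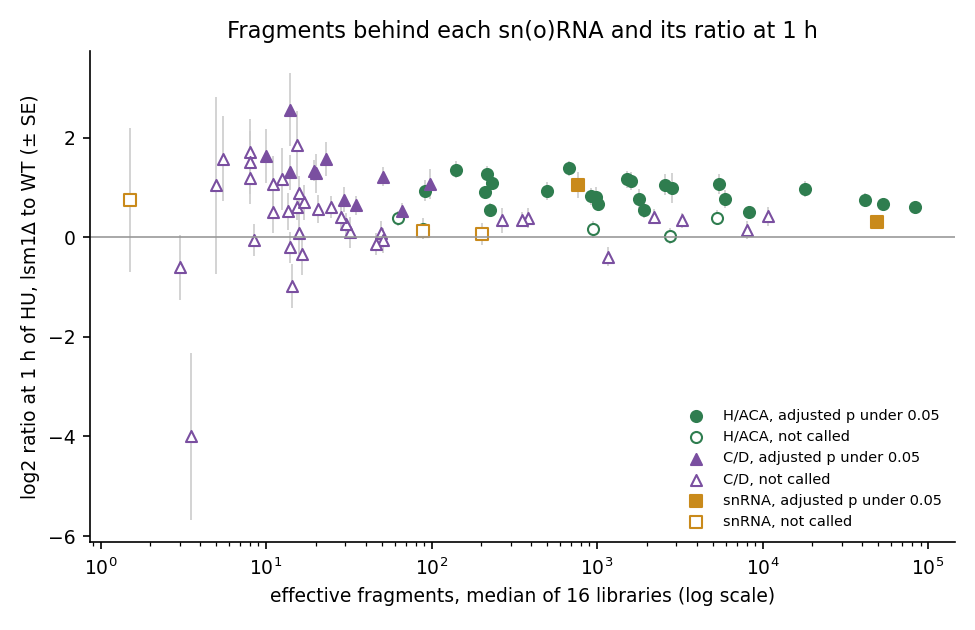
Log2 ratio of *lsm1*∆ to WT at 1 h of HU (vertical axis, with its standard error) against the median effective number of fragments in 16 libraries (log scale) for each of the 81 genes. Filled symbols are called. Calls run to the right, where 25 of 37 genes with at least 100 fragments are called, and the error bars widen to the left.

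At 1 h the median level of the 81 genes was below the untreated level in WT and near it in *lsm1*∆. It was 1749 and 1657 FPKM in *lsm1*∆ at 1 h, against 1085 and 1071 FPKM in WT at 1 h. The untreated libraries had 1935 and 1690 FPKM in *lsm1*∆ and 1559 and 1550 FPKM in WT. The median of the H/ACA genes was 2453 and 2006.8 FPKM in WT at 1 h, against 2463.2 and 2644.9 untreated, with replicate 1 close to the untreated level. In *lsm1*∆ the H/ACA median was 4111.5 and 3772.9 FPKM at 1 h, against 4183.2 and 2899.3 untreated. The 269 tested tRNA genes, which are also short, had median log2 ratios of *lsm1*∆ to WT of 0.25, 0.59, 0.00 and 0.22 at 0, 1, 2 and 4 h, whereas 210 open reading frames under 200 nt had 0.04, 0.16, 0.11 and 0.23. Of the tRNA genes 55 were called higher at 1 h (20.4%) and 0 lower. RNase P RNA (*RPR1*) and RNase MRP RNA (*NME1*), which are not members, had ratios of 0.32 and 0.27 at 1 h, and neither was called. The median tRNA level at 1 h overlapped between the strains, with 116 and 87.7 FPKM in *lsm1*∆ and 99.8 and 46.9 in WT. The last value, of WT replicate 2, was the lowest of the 16 libraries. Ratios of single tRNA genes at 1 h ran from -3.8 to 7.98. The part of any shift of tRNA genes in the members' ratios was not tested.

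Of the 81 members, 41 were called higher in *lsm1*∆ at 1 or more times and 8 at all 4 times. The matching shares of all genes were not counted, so whether these counts exceed the background is not known. The 8 were the H/ACA RNAs snR3, snR11, snR30, snR33, snR44, snR83 and snR86 and the C/D RNA snR74. With centred libraries 5 of them were called at all 4 times, without snR33, snR44 and snR74. Of the 5, snR11, which guides pseudouridylation of the large subunit rRNA, was 2858 and 2193 FPKM in *lsm1*∆ against 1451 and 1518 in WT untreated. At 1 h it was 3059 and 2426 FPKM in *lsm1*∆ against 1374 and 1071 in WT, and at 4 h 2713 and 2479 in *lsm1*∆ against 1217 and 1163 in WT. The groups did not overlap at any time, and the log2 ratios were 0.75, 1.17, 0.97 and 1.12 (SE 0.17 each). The adjusted p-values of limma for snR11 were 0.0094, 0.000686, 0.00147 and 0.000313.

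snR83, a guide of small subunit pseudouridylation, was 21106 and 15720 FPKM in untreated *lsm1*∆ and 11171 and 11872 FPKM in WT. At 4 h snR83 was 17425 and 17208 FPKM in *lsm1*∆ and 8906 and 8028 in WT, and its log2 ratios were 0.66, 0.97, 0.80 and 1.03 (SE 0.16) over the 4 times. snR3 had the largest ratio of the H/ACA RNAs at 1 h, with 3316 and 3574 FPKM in *lsm1*∆ and 1247 and 1379 in WT (log2 ratio 1.39, SE 0.15, adjusted p of limma 0.000126). snR33 was 6465 and 4944 FPKM in untreated *lsm1*∆ and 4236 and 3846 in WT, and 4442 and 4125 in *lsm1*∆ and 3445 and 3065 in WT at 4 h. Its log2 ratios, 0.49, 0.67, 0.38 and 0.40 (SE 0.13), were smaller than those of snR11 but passed the test at each time, and with centred libraries it was not called at 2 h (0.21) or at 4 h (-0.03).

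The long and deep members snR86 and snR30 had smaller errors. snR86, of 1004 nt, was 6220 and 5668 FPKM in untreated *lsm1*∆ and 4412 and 4556 in WT, and 7143 and 7135 in *lsm1*∆ and 4386 and 4405 in WT at 4 h. Its log2 ratios were 0.41, 0.68, 0.54 and 0.70 (SE 0.08), with an adjusted p-value of limma of 4.11e-05 at 4 h. snR30, which is needed for cleavage of the small subunit rRNA precursor and rested on 61510 to 106900 effective fragments, was 18038 and 17917 FPKM in untreated *lsm1*∆ and 14818 and 14245 in WT. It was 18715 and 19377 FPKM in *lsm1*∆ and 13632 and 11485 in WT at 1 h, 18307 and 18081 FPKM in *lsm1*∆ and 13823 and 11956 in WT at 2 h, and 18664 and 19857 FPKM in *lsm1*∆ and 12753 and 12450 in WT at 4 h. The groups did not overlap at any time, and its log2 ratios were 0.31, 0.61, 0.50 and 0.61 (SE 0.085).

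snR10, which assists early precursor cleavage, was 16237 and 11856 FPKM in untreated *lsm1*∆ and 10783 and 9728 in WT, and 15861 and 13259 FPKM in *lsm1*∆ and 9324 and 7761 in WT at 1 h, 12736 and 10818 FPKM in *lsm1*∆ and 9484 and 6911 in WT at 2 h, and 12478 and 12521 FPKM in *lsm1*∆ and 8376 and 6207 in WT at 4 h. Its log2 ratios were 0.44, 0.77, 0.54 and 0.79 (SE 0.21), called at 1 h and 4 h, and at 1 h only with centred libraries (0.37 at 4 h). It shares 216 of its 245 bases with *YGL088W*. snR5, an H/ACA guide that copurifies with a ring of Lsm2 to Lsm7, was 9684 and 7190 FPKM in untreated *lsm1*∆ and 8127 and 8351 in WT, and these overlapped (log2 ratio 0.02, SE 0.30). At 1 h it was 10214 and 8295 FPKM in *lsm1*∆ and 6657 and 3192 in WT, a log2 ratio of 1.00 (SE 0.30, adjusted p of limma 0.0258), and the 2 WT libraries differed from each other by more than either strain's other pair. It was 8140 and 7079 FPKM in *lsm1*∆ and 7013 and 4764 in WT at 2 h, and 8124 and 8195 FPKM in *lsm1*∆ and 5109 and 5242 in WT at 4 h, and these ratios of 0.39 and 0.66 were not called.

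U3, the C/D RNA of the small subunit processome, is encoded by snR17a and snR17b. snR17a was 25943 and 21974 FPKM in untreated *lsm1*∆ and 19605 and 19537 in WT, and 27082 and 23545 FPKM in *lsm1*∆ and 21264 and 16797 in WT at 1 h, 25360 and 23704 FPKM in *lsm1*∆ and 22257 and 16988 in WT at 2 h, and 30131 and 27614 FPKM in *lsm1*∆ and 20761 and 16987 in WT at 4 h. It was called at 4 h only (log2 ratio 0.62, SE 0.16, adjusted p of limma 0.00715), and with centred libraries at 1 h only (0.42, against 0.20 at 4 h). snR17b was 8837 and 6908 FPKM in untreated *lsm1*∆ and 6672 and 6662 in WT, and 7914 and 6894 FPKM in *lsm1*∆ and 6404 and 4718 in WT at 1 h, 6787 and 6333 FPKM in *lsm1*∆ and 6472 and 4717 in WT at 2 h, and 7797 and 7098 FPKM in *lsm1*∆ and 6047 and 4821 in WT at 4 h. It was called at no time (log2 ratios 0.23 to 0.46). The copy snR17b made up 20.4% to 25.4% of their summed FPKM in *lsm1*∆ libraries and 21.7% to 25.4% in WT libraries.

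U14 (snR128), which is needed for cleavage, and its neighbour snR190 come from 1 transcript. U14 was 6920 and 6274 FPKM in untreated *lsm1*∆ and 8599 and 6766 in WT, and 7088 and 6416 FPKM in *lsm1*∆ and 6354 and 4145 in WT at 1 h, 6224 and 5301 FPKM in *lsm1*∆ and 6584 and 4816 in WT at 2 h, and 5700 and 5738 FPKM in *lsm1*∆ and 5691 and 5530 in WT at 4 h. snR190 was 37965 and 29453 FPKM in untreated *lsm1*∆ and 28763 and 27184 in WT, and 34390 and 27566 FPKM in *lsm1*∆ and 30597 and 25108 in WT at 1 h, 27452 and 28069 FPKM in *lsm1*∆ and 28684 and 22955 in WT at 2 h, and 25679 and 27098 FPKM in *lsm1*∆ and 27197 and 20738 in WT at 4 h. Neither was called in *lsm1*∆ against WT at any time, with log2 ratios of -0.21 to 0.39 for U14 and 0.11 to 0.26 for snR190.

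Among C/D guides the largest ratios rested on few fragments. In untreated cells the 3 largest calls were snR60, snR74 and snR24, with log2 ratios of 1.32 (SE 0.34), 1.27 (SE 0.35) and 1.19 (SE 0.35). snR60 was 1596 and 1993 FPKM in *lsm1*∆ and 664 and 763 in WT. snR74 was 1716 and 2068 FPKM in *lsm1*∆ and 584 and 1039 in WT, and snR24 was 1696 and 1407 FPKM in *lsm1*∆ and 759 and 604 in WT. The median number of effective fragments was 22.9, 13.9 and 15.9. Without 1 library, snR24 lost its call in all 4 cases (adjusted p of limma 0.0626 to 0.151). snR60 lost it without *lsm1*∆ replicate 2, WT replicate 1 or WT replicate 2 (adjusted p 0.0543 to 0.0919). snR74 lost it without *lsm1*∆ replicate 1, *lsm1*∆ replicate 2 or WT replicate 1 (adjusted p 0.0575 to 0.154), and its ratio was 0.86 in the last case.

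At 1 h the largest called ratios were those of snR48, snR79 and snR60. Uncalled ratios of snR56 (1.85) and snR65 (1.71) were larger than that of snR79. snR48 was 363 and 457 FPKM in *lsm1*∆ and 198 and 22.7 in WT, the lowest WT value being that of 1 effective fragment, and its log2 ratio was 2.57 (SE 0.73, adjusted p of limma 0.0203, and 0.0614 or 0.0835 without *lsm1*∆ replicate 1 or 2). snR79, which guides small subunit methylation, was 1550 and 1350 FPKM in *lsm1*∆ and 796 and 273 in WT (log2 ratio 1.63, SE 0.55), and without WT replicate 2 the ratio was 0.86 and not called (adjusted p of limma 0.27), nor was it called without either *lsm1*∆ library (0.0935 and 0.142). snR60 was 1306 and 1416 FPKM in *lsm1*∆ and 641 and 326 in WT (log2 ratio 1.57, SE 0.34). snR40, chosen after its values were seen, had more even replicates, with 2780 and 3130 FPKM in *lsm1*∆ and 1273 and 1254 in WT at 1 h (log2 ratio 1.22, SE 0.19, adjusted p of limma 0.00101).

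Of the rises that were called, snR71 was among the 3 largest at 2 h and at 4 h. Some uncalled ratios were larger, such as those of snR72 at 2 h (4.76) and snR6 at 4 h (2.88). snR71 was 1556 and 1017 FPKM in *lsm1*∆ and 636 and 600 in WT at 2 h (log2 ratio 1.03, SE 0.25), and 1740 and 1232 in *lsm1*∆ and 438 and 668 in WT at 4 h (log2 ratio 1.43, SE 0.25, adjusted p of limma 0.000673). In untreated cells it was 1186 and 1257 FPKM in *lsm1*∆ and 1110 and 929 in WT, and was not called. Without *lsm1*∆ replicate 1 its adjusted p at 2 h was 0.0738. The other leading rises were snR74 at 2 h (log2 ratio 1.37, SE 0.35, adjusted p 0.0624 without *lsm1*∆ replicate 1 and 0.0725 without WT replicate 2) and snR11 and snR83 at 4 h.

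Calls in the other direction were few. snR67, which guides large subunit methylation, was 7322 and 4897 FPKM in untreated *lsm1*∆ and 10858 and 9461 in WT, a log2 ratio of -0.76 (SE 0.25, adjusted p of limma 0.0449). With *lsm1*∆ replicate 2, WT replicate 1 or WT replicate 2 left out the adjusted p was 0.265, 0.178 and 0.0955. At 4 h snR67 was 4383 and 3731 FPKM in *lsm1*∆ and 6491 and 5633 in WT, which did not overlap but were not called (log2 ratio -0.58), though they were with centred libraries (-1.01). The other members called lower, snR14 and snR7-L, were snRNAs.

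**Figure D3:**
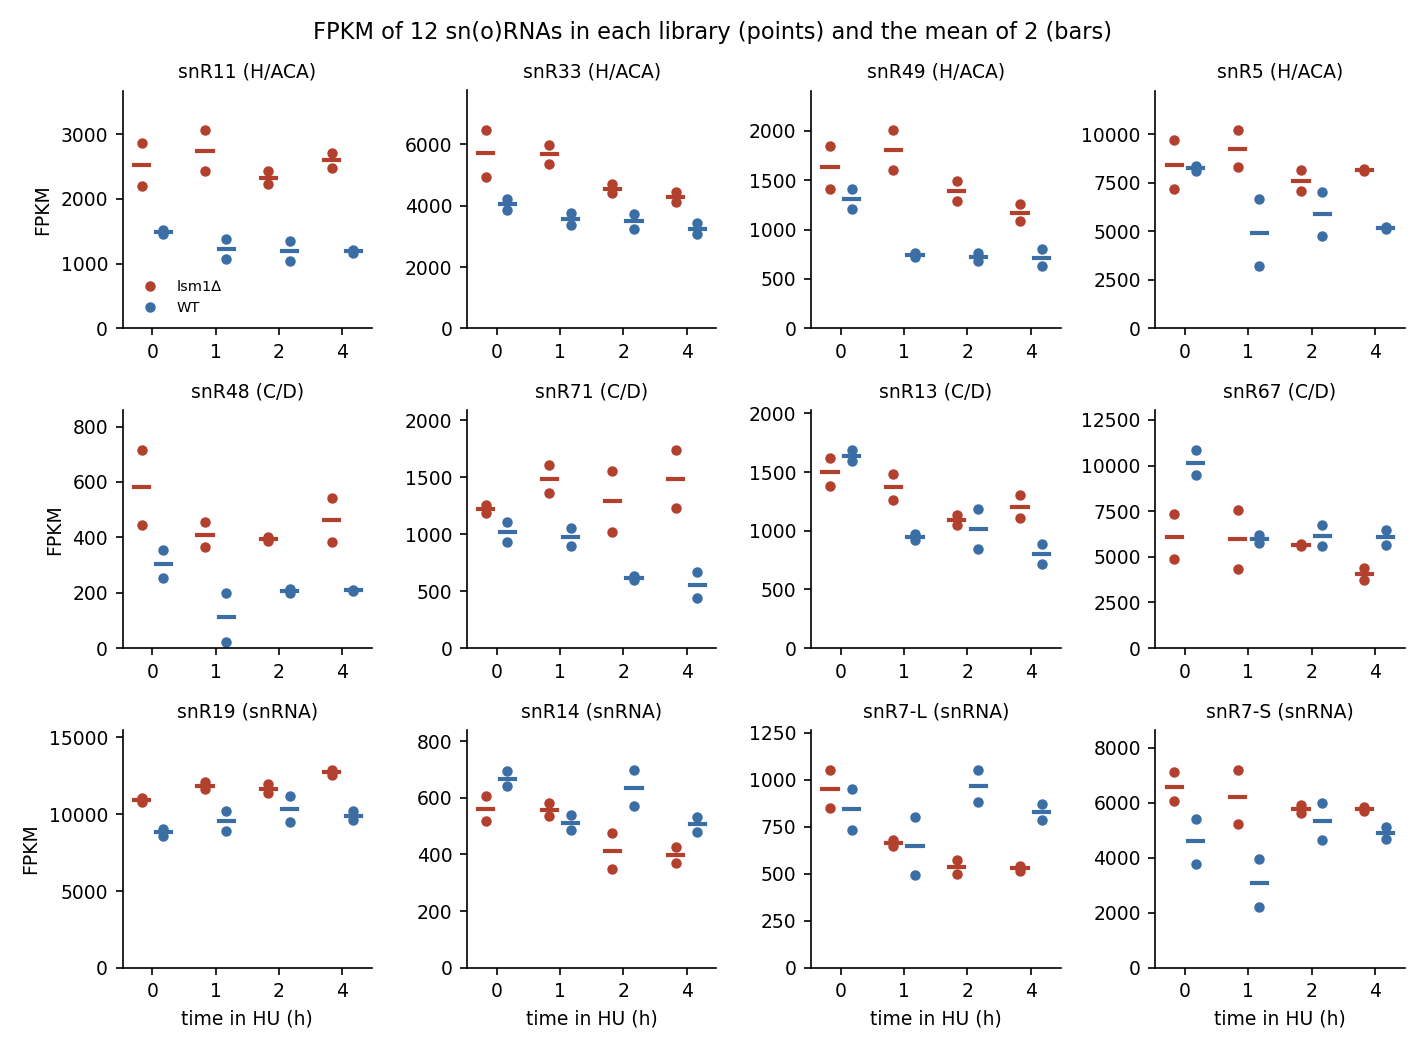
FPKM of 12 members in each library (points) against time in HU (h), *lsm1*∆ left of WT at each time, with the mean of 2 as bars and axes that start at 0. snR11 and snR33 are above WT in *lsm1*∆ at all 4 times, snR49 separates from WT at all 4 times though narrowly at 0 h, snR13 at 1 h and 4 h but not at 2 h, and snR7-L lies below WT at 2 h and 4 h.

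The snRNAs did not move as a group. U1 (snR19), which recognises the 5′ splice site, was 11086 and 10775 FPKM in untreated *lsm1*∆ and 8590 and 9052 in WT, and 12104 and 11616 FPKM in *lsm1*∆ and 10210 and 8915 in WT at 1 h, 11377 and 11952 FPKM in *lsm1*∆ and 11157 and 9488 in WT at 2 h, and 12582 and 12903 FPKM in *lsm1*∆ and 10191 and 9591 in WT at 4 h. Its log2 ratios were 0.31, 0.31, 0.18 and 0.37 (SE 0.085), called at 0 h, 1 h and 4 h, and with centred libraries at 0 h and 1 h but not at 4 h (-0.06). U4 (snR14), which pairs with U6, was 605 and 518 FPKM in untreated *lsm1*∆ and 640 and 695 in WT, and 534 and 583 FPKM in *lsm1*∆ and 485 and 539 in WT at 1 h, 477 and 349 FPKM in *lsm1*∆ and 700 and 572 in WT at 2 h, and 427 and 371 FPKM in *lsm1*∆ and 531 and 481 in WT at 4 h. It was called lower at 2 h (log2 ratio -0.63, SE 0.16, adjusted p of limma 0.00919). Without *lsm1*∆ replicate 2 its adjusted p was 0.0795, and without WT replicate 1 it was 0.0721. U2 (*LSR1*), which does not carry an snR identifier, had log2 ratios of 0.03, 0.09, -0.08 and 0.08, and was not called. U6 was 25.6 and 54.4 FPKM in untreated *lsm1*∆ and 96 and 52.5 in WT, and 70.8 and 25 FPKM in *lsm1*∆ and 25.8 and 23.6 in WT at 1 h, and 26 and 28.8 FPKM in *lsm1*∆ and 52 and 49 in WT at 2 h. It was 102 and 28.3 FPKM in *lsm1*∆ at 4 h, where WT replicate 1 was listed at 0 and replicate 2 at 54.6.

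The 2 forms of U5, the snRNA that holds the exons during splicing, behaved differently. The long form snR7-L was 1053 and 849 FPKM in *lsm1*∆ and 734 and 949 in WT untreated, and 647 and 677 in *lsm1*∆ and 494 and 804 in WT at 1 h. It was 575 and 500 FPKM in *lsm1*∆ and 1053 and 883 in WT at 2 h, and 514 and 542 in *lsm1*∆ and 872 and 784 in WT at 4 h. Its log2 ratio was -0.84 (SE 0.21, adjusted p of limma 0.00986) at 2 h and -0.65 (SE 0.21, adjusted p 0.0254) at 4 h, and without 1 library the adjusted p at 4 h was 0.0557 to 0.113. At 2 h it was 0.0658 without *lsm1*∆ replicate 2 and 0.0655 without WT replicate 1.

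The short form snR7-S was 7095 and 6074 FPKM in *lsm1*∆ and 3777 and 5405 in WT untreated, and 5217 and 7199 FPKM in *lsm1*∆ and 2218 and 3944 in WT at 1 h, 5913 and 5624 FPKM in *lsm1*∆ and 5996 and 4645 in WT at 2 h, and 5699 and 5837 FPKM in *lsm1*∆ and 5124 and 4681 in WT at 4 h. It was called at 1 h only, as higher (log2 ratio 1.05, SE 0.27). The long form therefore made up 12.9% and 12.3% of the U5 FPKM in *lsm1*∆ and 16.3% and 14.9% in WT untreated, 11% and 8.59% in *lsm1*∆ and 18.2% and 16.9% in WT at 1 h, and 8.27% and 8.5% in *lsm1*∆ and 14.5% and 14.3% in WT at 4 h. The share was lower in *lsm1*∆ at each time with no overlap, a pattern chosen after the values were seen and given with no test. The forms differ only in the 35 bases in capitals above, and fragments outside them were divided between the forms by Cufflinks.

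**Figure D4:**
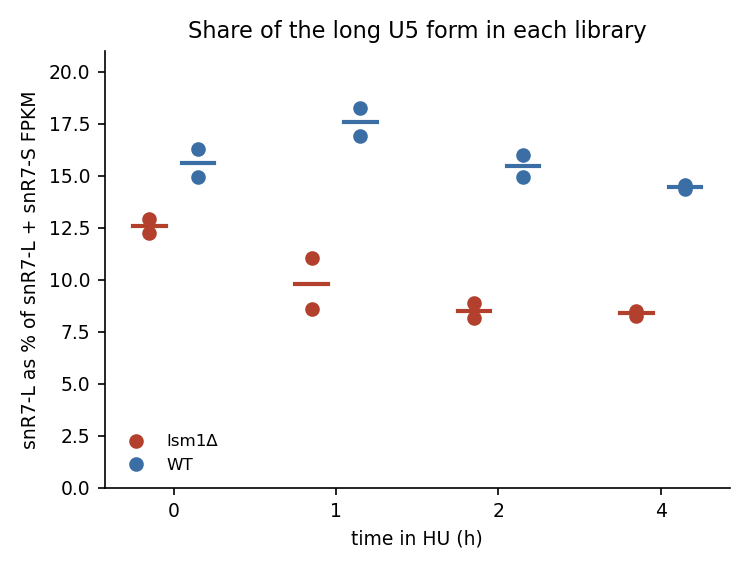
Share of the long U5 form (snR7-L) in the summed FPKM of both forms in each library (points, with the mean of 2 as bars) against time in HU (h), *lsm1*∆ left of WT. The *lsm1*∆ libraries lie between 8.17% and 12.9% and the WT libraries between 14.3% and 18.2%.

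The second question was how sn(o)RNA abundance responds to HU. In WT, 21 of 81 members were called lower after 1 h (25.9%) and 0 higher, where 8.36% of all genes were lower and 36% higher. No member reached an unadjusted p under 0.05 for a rise. At 2 h 8 were lower (9.88%) and 1 higher, against 11.9% and 31.1% of all genes, and at 4 h 12 were lower (14.8%) and 0 higher, against 26% and 22%, again with 0 rises at an unadjusted p under 0.05. At 1 h the share called lower was above that of all genes. The median log2 change of the 81 members in WT was -0.39, -0.25 and -0.32 at 1, 2 and 4 h, where that of all tested genes was 0.22, 0.16 and -0.03. With centred libraries 42, 24 and 12 members were called lower (51.9%, 29.6% and 14.8%, against 17.6%, 20.5% and 24.7% of all genes). At 4 h the replicate block called 26 lower, and the 4 libraries alone called 30. The shares of all genes in these fits are not given, so these counts cannot be set against a background. With 1 library left out the count at 1 h was 10 (without untreated replicate 2) to 32 (without replicate 1 at 1 h).

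In *lsm1*∆, 0 members were called in either direction at 1 h, where 25% of all genes were higher and 9.4% lower, and 1 and 7 members were higher and lower at an unadjusted p under 0.05. At 2 h 7 were lower (8.64%) and 0 higher, where 10.1% of all genes were lower and 38.6% higher, with 0 rises at an unadjusted p under 0.05. At 4 h 12 were lower (14.8%) and 2 higher (2.47%), where 14.7% were lower and 43.6% higher. The median change of the members was 0.00, -0.20 and -0.14, against 0.14, 0.23 and 0.27 for all genes, and with centred libraries 6, 22 and 32 were called lower (7.41%, 27.2% and 39.5%, against 15.5%, 20.9% and 27.5% of all genes). In both strains the members thus lay below the median gene at each time of HU. The comparisons with untreated cells share their untreated libraries within a strain.

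The H/ACA genes had median changes of -0.29, -0.25 and -0.34 in WT and 0.08, -0.11 and -0.11 in *lsm1*∆ at 1, 2 and 4 h. The C/D genes had -0.49, -0.28 and -0.29 in WT and -0.16, -0.27 and -0.21 in *lsm1*∆. In WT, all 29 H/ACA genes had negative values at 1 h and at 4 h, of which 10 and 8 were called. tRNA genes had median changes of -0.40, 0.00 and -0.29 in WT and 0.17, -0.34 and 0.03 in *lsm1*∆.

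**Figure D5:**
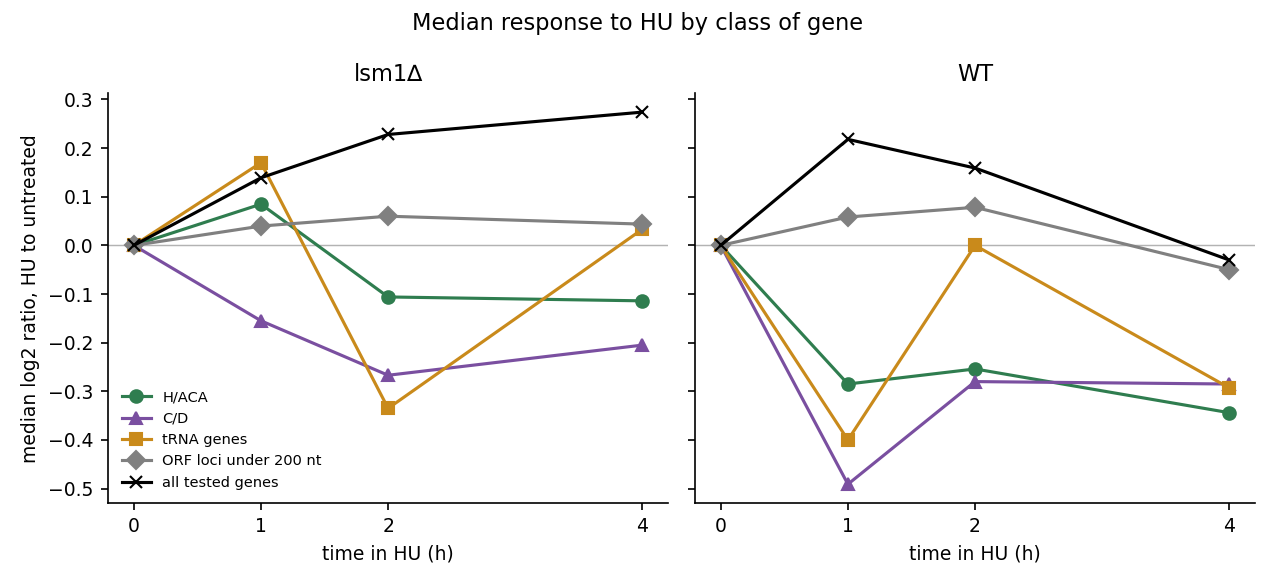
Median log2 ratio of HU-treated to untreated cells (vertical axis) at each time (h) in *lsm1*∆ (left) and WT (right), for H/ACA genes, C/D genes, tRNA genes, open reading frames under 200 nt and all tested genes, with 0 at time 0 by definition. At 1 h the H/ACA median is 0.08 in *lsm1*∆ and -0.29 in WT, and the tRNA median is 0.17 and -0.40.

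The members called lower in WT at all 3 times of HU were snR13, snR40, snR49, snR67, snR80 and snR189. The share of all genes called lower at all 3 times was not counted. snR13 fell to 974 and 922 FPKM at 1 h and to 718 and 889 FPKM at 4 h of HU, against 1690 and 1592 FPKM in untreated WT cells (log2 change at 4 h -1.04, SE 0.17, adjusted p of limma 0.000571). snR49 fell to 765 and 720 FPKM at 1 h and to 627 and 798 FPKM at 4 h, against 1211 and 1409 FPKM untreated (log2 change at 4 h -0.88, SE 0.17, adjusted p 0.00183). snR71 had 438 and 668 FPKM at 4 h against 1110 and 929 FPKM untreated (log2 change -0.91, SE 0.25), and without WT replicate 1 at 0 h or at 4 h its adjusted p was 0.0774 or 0.108. snR24, inside *ASC1*, was the member called higher in WT at 2 h, with 1270 and 1479 FPKM against 759 and 604 FPKM untreated (log2 change 1.02, SE 0.35, adjusted p of limma 0.04, and 0.0911 with centred libraries).

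In *lsm1*∆ at 4 h the 3 largest called falls were snR60, snR73 and snR7-L. snR60 had 885 and 901 FPKM against 1596 and 1993 untreated (log2 change -0.998, SE 0.34, adjusted p of limma 0.0509 to 0.138 with any 1 library left out). snR73 had 1333 and 1295 FPKM against 3194 and 2004 untreated (log2 change -0.94, SE 0.20, adjusted p of limma 0.00224), and snR7-L had the values given above (log2 change -0.84, SE 0.21, adjusted p 0.00666, and 0.0541 without untreated replicate 1). The 2 members called higher were snR86, with a log2 change of 0.27 (SE 0.08), and U1, with 0.22 (SE 0.085). Both lay below the median change of all genes, and with centred libraries their changes were -0.05 and -0.09. snR86 lost its call without untreated replicate 2 or either library at 4 h (adjusted p 0.0584 to 0.112), and U1 without any of the 4 (0.0924 to 0.153).

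The third question was whether the ratio of *lsm1*∆ to WT changes in HU. At 4 h, 2 members had a ratio called higher than in untreated cells (2.47%) and 0 lower, where 26.9% of all genes were called higher and 3.55% lower, and 2 members were lower at an unadjusted p under 0.05. The 2 were snR71, with a log2 change of ratio of 1.17 (SE 0.35, adjusted p of limma 0.0309), and snR13, with 0.72 (SE 0.24, adjusted p 0.044). With centred libraries neither was called (adjusted p 0.149 and 0.284). At 1 h, a comparison added after the data were seen, 0 members were called in either direction, where 0.287% of all genes were higher and 0.215% lower. At an unadjusted p under 0.05, 17 members were higher and 1 lower. All 29 H/ACA genes had a positive value, with a median of 0.37. The difference between the strains in the response at 1 h, 21 members called lower in WT and 0 in *lsm1*∆, was therefore not shown for any single member.

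Genes inside introns were compared with their hosts. The 8 intronic members had median log2 ratios of *lsm1*∆ to WT of -0.07, 0.10, -0.22 and -0.11 at 0, 1, 2 and 4 h, below the medians of 0.29, 0.67, 0.31 and 0.41 of all members, and 2 of 8 were called higher at 1 h. At 4 h of HU the host mRNAs of the 7 guests other than snR191 had log2 changes of -0.38 (*IMD4*) to -1.46 (*ASC1*) in WT, all called. Of the 8 guests 1 was called lower, snR44, where 26% of all genes were. The guests' changes ran from -0.57 (snR39) to 0.51 (snR24). Those other than snR44 and snR191 rest on medians of 8.5 (snR59) to 49.5 (snR18) effective fragments, so a missing call there does not show a missing fall. snR44 was 883 and 765 FPKM in untreated *lsm1*∆ and 562 and 544 in WT (log2 ratio 0.57, SE 0.12), and 543 and 514 in *lsm1*∆ and 392 and 405 in WT at 4 h (log2 ratio 0.41, SE 0.12). Its host *RPS22B*, a ribosomal protein gene, had ratios of 0.74, 0.66, 0.36 and 0.05, so snR44 was called in *lsm1*∆ at 4 h and its host was not, and with centred libraries snR44 was called at 0 h and 1 h only (-0.02 at 4 h). At the other times snR44 was 757 and 848 FPKM in *lsm1*∆ and 403 and 346 in WT at 1 h, and 595 and 736 FPKM in *lsm1*∆ and 522 and 449 in WT at 2 h.

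The other guests had *lsm1*∆ values on both sides of WT. snR191 was 3367 and 2498 FPKM in *lsm1*∆ and 3070 and 3267 in WT at 0 h, 2971 and 2697 FPKM in *lsm1*∆ and 3052 and 2512 in WT at 1 h, 2411 and 2488 FPKM in *lsm1*∆ and 3221 and 2506 in WT at 2 h, and 2314 and 2214 FPKM in *lsm1*∆ and 2591 and 2392 in WT at 4 h. It was called in no comparison, nor were snR18, snR38 and snR54. snR18 was 1896 and 1559 FPKM in *lsm1*∆ and 2245 and 2338 in WT at 0 h, 1816 and 1657 FPKM in *lsm1*∆ and 1205 and 2206 in WT at 1 h, 2002 and 1822 FPKM in *lsm1*∆ and 2314 and 2033 in WT at 2 h, and 2316 and 1666 FPKM in *lsm1*∆ and 1581 and 1853 in WT at 4 h. snR38 was 2095 and 1082 FPKM in *lsm1*∆ and 1961 and 2091 in WT at 0 h, 1533 and 1988 FPKM in *lsm1*∆ and 1619 and 1630 in WT at 1 h, 1689 and 1386 FPKM in *lsm1*∆ and 1416 and 2258 in WT at 2 h, and 2251 and 1720 FPKM in *lsm1*∆ and 1801 and 2401 in WT at 4 h. snR54 was 1929 and 1394 FPKM in *lsm1*∆ and 1313 and 2065 in WT at 0 h, 968 and 1195 FPKM in *lsm1*∆ and 793 and 2338 in WT at 1 h, 1423 and 1475 FPKM in *lsm1*∆ and 1955 and 1759 in WT at 2 h, and 1399 and 1645 FPKM in *lsm1*∆ and 1929 and 1772 in WT at 4 h. For all 3 the log2 ratios lay between -0.43 and 0.20. snR39 was 2875 and 2267 FPKM in *lsm1*∆ and 2897 and 3473 in WT at 0 h, 2035 and 3229 FPKM in *lsm1*∆ and 1778 and 1288 in WT at 1 h, 1869 and 2067 FPKM in *lsm1*∆ and 2465 and 2465 in WT at 2 h, and 1765 and 1221 FPKM in *lsm1*∆ and 1931 and 2353 in WT at 4 h. It was called higher in *lsm1*∆ at 1 h (log2 ratio 0.76), lower in WT at 1 h of HU (-1.07) and lower in *lsm1*∆ at 4 h (-0.80). snR59 was 1487 and 2208 FPKM in *lsm1*∆ and 974 and 1219 in WT at 0 h, 1232 and 869 FPKM in *lsm1*∆ and 1046 and 1094 in WT at 1 h, 1207 and 834 FPKM in *lsm1*∆ and 1507 and 1279 in WT at 2 h, and 1484 and 1478 FPKM in *lsm1*∆ and 1558 and 791 in WT at 4 h. It was called lower in *lsm1*∆ at 2 h of HU (-0.85). snR24 was 1153 and 1435 FPKM in *lsm1*∆ and 889 and 542 in WT at 1 h, 1346 and 1075 FPKM in *lsm1*∆ and 1270 and 1479 in WT at 2 h, and 1103 and 651 FPKM in *lsm1*∆ and 695 and 1333 in WT at 4 h, beside the untreated values given above.

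Guides that are cut from 1 transcript had unlike ratios in some units, and whether they differed beyond their errors was not tested. In the unit of snR72 to snR78 (chrXIII:297278-298651) the untreated log2 ratios ran between -0.14 (snR77) and 1.72 (snR72). Of its 7 genes 2 were called higher, snR74 and snR73, where 22.2% of all genes were. snR72, with a median of 5 effective fragments, had an SE too wide for a call. In the units of snR57, snR55 and snR61 and of snR41, snR70 and snR51, 0 of 3 genes each were called in *lsm1*∆ against WT at any time. In the pair of snR67 and snR53 the untreated ratios were -0.76 and 1.65 (the second uncalled, on a median of 3 effective fragments).

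The mRNAs of the proteins that bind the snoRNAs fell in HU, and most of them were higher in untreated *lsm1*∆ than in WT. All 4 H/ACA core protein mRNAs (*CBF5*, *GAR1*, *NHP2* and *NOP10*) were called higher in *lsm1*∆ at all 4 times, with medians of 0.57, 0.61, 0.72 and 0.90. Of the 4 C/D core protein mRNAs, *NOP1* and *NOP56* were called at all 4 times, *NOP58* at 0 h only and *SNU13* at none. All 8 were called lower at each time of HU in both strains, with medians at 4 h of -0.99 (H/ACA) and -1.22 (C/D) in *lsm1*∆ and -1.29 and -1.08 in WT. Of all genes, 9.4%, 10.1% and 14.7% were called lower at 1, 2 and 4 h in *lsm1*∆ and 8.36%, 11.9% and 26% in WT. Called higher in *lsm1*∆ against WT were 22.2%, 23.2%, 32% and 49.8% of all genes at 0, 1, 2 and 4 h. The share of all genes called at every time was not counted. The snoRNAs themselves had medians at 4 h of -0.11 (H/ACA) and -0.21 (C/D) in *lsm1*∆ and -0.34 and -0.29 in WT.

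Against 22.2% of all genes called higher in *lsm1*∆ at 0 h and 49.8% at 4 h, 2 of 9 snoRNP assembly factor mRNAs were called higher in *lsm1*∆ at 0 h (22.2%) and 4 at 4 h (44.4%), the 4 h calls including *RVB1* (log2 ratio 0.65) and *RVB2* (0.73), helicases of snoRNP assembly. Of 9 snoRNA processing and termination factor mRNAs, 2 were higher at 0 h and 7 at 4 h, among them *NRD1* (1.10 at 4 h), which terminates snoRNA transcription, and *LRP1* (1.12 at 4 h), a cofactor of the nuclear exosome. Of the 7 Sm ring mRNAs 5 were higher at 0 h and 7 at 4 h, and of the 8 mRNAs of the U6 Lsm ring and its recycling factor 2 were higher at 0 h and 6 at 4 h. With centred libraries the counts at 4 h were 2 of 9, 2 of 9 (with 2 lower), 6 of 7 and 4 of 8 (with 1 lower), and those of the core proteins 3 of 4 (H/ACA) and 0 of 4 (C/D), where 21.9% of all genes were higher. Of the other stable non-coding RNAs, telomerase RNA (*TLC1*) was called higher in *lsm1*∆ at all 4 times (0.38, 0.53, 0.39 and 0.48) and the signal recognition particle RNA *SCR1* at 1 h (0.38) and 4 h (0.39), whereas *LSR1*, *NME1* and *RPR1* were called at none. With centred libraries 0 of these 5 were called higher and 2 lower at 2 h and at 4 h.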

How the data were processed

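Ribosomal RNA was removed from total RNA and unstranded TruSeq RNA v2 libraries were made. The authors aligned 50 bp reads to sacCer3 with TopHat2 and estimated abundance with Cufflinks, which gave the deposited FPKM values and their intervals, 1 table of 7126 genes a library. Tool versions are not given in the sources used here. The 46 genes with a failed estimate were left out, and 6977 genes reaching 1 FPKM in 2 or more libraries entered the fit, all 81 members among them. Log2(FPKM + 1) of all 16 libraries was fitted in limma 3.58.1 (R 4.3.3; lmFit, eBayes with trend) with a mean for each of 8 conditions, and calls are at a Benjamini-Hochberg adjusted p under 0.05 over all tested genes, with no minimum fold. FPKM are not counts, so no count test was used. The effective number of fragments is (2 FPKM/half-width of the Cufflinks interval) squared. No interval on a level is given, since the depth of each library is known only through these numbers. Figures and summaries used Python 3.11.15 and pandas 2.3.3.

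Over all tested genes same-numbered replicates did not deviate together, so no block was fitted in the main analysis. The members' share of all FPKM was, however, higher in replicate 1 than in replicate 2 in each of the 8 conditions. It was 11.7% and 11.4% in untreated WT and 12.3% and 10.8% in WT at 1 h. The counts that a replicate block moved are given below. Members, lists and classes were chosen with earlier results of these data known. Values in every library were given for (a) the snRNAs, U3, U14, snR190, snR30, snR10 and snR5, (b) up to 3 of the largest rises and falls among called members with separate replicates, for *lsm1*∆ against WT at each time, 4 h of HU in each strain and the change of ratio at 4 h, as room allowed, (c) members inside another gene and (d) the 5 highest and 5 lowest members by mean FPKM. The mRNA lists were C/D core proteins, H/ACA core proteins, snoRNP assembly, snoRNA processing and termination, U6 Lsm ring and recycling, Sm ring and other stable non-coding RNAs. Alternatives were centred libraries, a pseudocount of 0.1, every gene without a filter (7060), a mean of 5 FPKM in every condition (6199 genes), only the compared libraries, a replicate block and each library left out, and, added after seeing the data, members with a mean of at least 10 effective fragments and the change of ratio at 1 h. The code was tested on simulated data.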

Additional observations from a re-analysis of the deposited data

Results flagged for a closer look

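The ratio of *lsm1*∆ to WT changed between untreated cells and 4 h of HU in 2 members by limma's test of the interaction. For snR71 the log2 change of the ratio was 1.17, and for snR13 it was 0.718. snR71 was not called with replicate 1 or 2 of untreated *lsm1*∆, replicate 1 of untreated WT, replicate 1 of *lsm1*∆ at 4 h or replicate 1 of WT at 4 h left out (adjusted p 0.0799, 0.0604, 0.0988, 0.108 and 0.101). snR13 was not called with any of the 8 libraries left out except replicate 2 of WT at 4 h (adjusted p 0.0501 to 0.138). snR71 rests on 6 to 25 effective fragments a library and snR13 on 40 to 108.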

How the results depend on the processing

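A pseudocount of 0.1, no filter, a filter of 5 FPKM and leaving out members with few fragments kept each count within 1.5 times. Shares of all genes called are given above for the main fit and centred libraries only. Centring left 11 higher at 2 h, 6 higher and 7 lower at 4 h in *lsm1*∆ against WT, 42 lower at 1 h, 24 lower and 0 higher at 2 h in WT, 6, 22 and 32 lower at 1, 2 and 4 h and 0 higher at 4 h in *lsm1*∆, and 0 higher and 3 lower for the change of ratio at 4 h. Under centring the log2 change at 4 h in *lsm1*∆ turned to -0.0452 for snR86 and -0.0897 for snR19, neither called. With only the libraries compared, *lsm1*∆ against WT gave 5 higher and 0 lower at 0 h, 10 higher at 1 h, 4 lower at 2 h and 3 lower at 4 h, WT gave 9 lower at 1 h and 2 higher and 30 lower at 4 h, *lsm1*∆ gave 7 lower at 4 h, and the change of ratio at 4 h gave 4 higher and 2 lower.

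Over all tested genes same-numbered replicates did not deviate together (correlations of -0.207 to 0.229 over 28 pairs of groups, 8 above 0.1). The members' share of all FPKM was higher in replicate 1 in each condition. The replicate block gave 1 lower at 1 h in *lsm1*∆ against WT, 2 higher and 13 lower at 2 h and 26 lower at 4 h in WT, and snR67 was not called (adjusted p 0.0526).

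With 1 library left out, the lone library of that condition is assumed to vary like the others. *lsm1*∆ against WT had 5 to 13 higher and 0 to 1 lower at 0 h (5, 6 and 9 higher without *lsm1*∆ replicate 1, WT replicate 1 and WT replicate 2), 26 to 46 higher and 0 to 2 lower at 1 h, 8 to 27 higher and 0 to 3 lower at 2 h (8, 12 and 9 higher without *lsm1*∆ replicate 1, *lsm1*∆ replicate 2 and WT replicate 2), and 22 to 27 higher and 0 to 1 lower at 4 h. WT had 10 to 32 lower at 1 h (11 and 10 without untreated replicates 1 and 2, 32 and 12 without replicates 1 and 2 at 1 h), 0 to 2 higher and 2 to 7 lower at 2 h (3 and 3 lower without untreated replicates 1 and 2, 2 without replicate 2 at 2 h) and 5 to 10 lower at 4 h (5 and 7 without untreated replicates 1 and 2, 7 without replicate 1 at 4 h). *lsm1*∆ had 0 to 1 higher and 0 to 3 lower at 1 h, 2 to 9 lower at 2 h (3 without untreated replicate 1, 2 without replicate 2 at 2 h), and 0 to 2 higher and 4 to 12 lower at 4 h (4 without untreated replicate 1, 7 without replicate 2 at 4 h). The change of ratio had 0 to 1 higher and 0 to 1 lower at 1 h and 0 to 3 higher and 0 to 1 lower at 4 h. Of 112 tests of named ratios with 1 library left out, 55 lost their call and 0 turned direction. The cause of these changes was not tested beyond the smaller number of libraries.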
